A study of Canis lupus familiaris with 124 samples.

Results

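CLDN7, TMPRSS2 and TGM1 are 3 of the 32183 genes counted by RNA sequencing in canine prostate adenocarcinoma (PAC), PAC metastasis and transitional cell carcinoma (TCC). They were chosen by their measured CPM in these cell lines and tissues and by the contrast between both, as epithelial genes with low levels in some samples. Their levels are therefore given as a description with no test, and the question was whether low levels of the 3 genes occurred in the same samples. Their identifiers are ENSCAFG00000016124 for CLDN7, ENSCAFG00000010190 for TMPRSS2 and ENSCAFG00000012182 for TGM1.

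The epithelium of bladder and prostate is sealed by tight junctions, and CLDN7 encodes a claudin, a membrane protein that lies at tight junctions and along the lateral membrane, where it binds EPCAM. TMPRSS2 encodes a serine protease anchored in the apical membrane of prostate, bladder and other epithelia, where it can cleave and activate other surface proteins. In the human prostate its transcription responds to androgen. TGM1 encodes keratinocyte transglutaminase, which crosslinks proteins below the membrane of squamous cells into the cornified envelope. The 3 genes thus stand for cell junctions, secretory apical membrane and squamous differentiation.

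The 8 cell lines and 9 tissues came from 9 dogs and gave 31 libraries. Adcarc0846 (PAC, dog of 6 years) came from tissue P2, Adcarc1508 (PAC, 11 years) from a tissue not used here, and TCC0840 (TCC, 10 years) from a fine-needle aspirate. One dog of 6 years gave Adcarc1511.1 (PAC), the metastasis lines Metadcarc1511.2 and Metadcarc1511.3, and the lymph node metastases Ln4.2 and Ln4.3 from which these were grown. TCC1509 came from the primary TCC P6.1 of a dog of 9 years that also gave the lymph node metastasis Ln6.2, and TCC1506 from the bladder TCC B7 of a dog of 10 years. The bladder TCC tissues B8 (11 years), B9 (8 years) and B10 (8 years) had no cell line. Untreated cells were grown in Medium 199 with fetal calf serum, penicillin and streptomycin, and were harvested at passages 68 to 448, with 2 libraries for TCC0840 and Adcarc0846, 3 for the other 6 lines and 1 for each tissue. The labels do not name the libraries of a line as separate cultures from separate animals, so the spread between them covers culture, passage and preparation within 1 line.

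Expected counts summed to 15355798 to 19935282 in the libraries of lines and to 11920463 to 18086895 in those of tissues. Levels are in CPM, counts relative to the library total, scaled for library composition with TMM factors, and a line's level is the mean of its libraries with their SD. A level of 3 counts, taken as the floor, corresponds to 0.137 to 0.233 CPM in 1 library, and intervals and floors cover counting error only. RNA of cells and tissues was isolated with different kits, and the sample numbers of the libraries, which run from 1 to 16 with 15 of them used by 2 libraries, appear to form 2 series. All tissues stand in the series that also holds Adcarc0846, TCC0840 and replicates 1 and 2 of TCC1506. Effects of kit, and for the other lines of series, cannot be told apart from the difference between lines and tissues.

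CLDN7 was present at 71.1 CPM or more in every library of 7 of the 8 lines and nearly absent from TCC1509. Adcarc1511.1 held 272, 187 and 390 CPM, Metadcarc1511.2 180, 188 and 220 CPM, and Metadcarc1511.3 171, 167 and 213 CPM in their 3 libraries. Adcarc1508 held 209, 161 and 184 CPM, and Adcarc0846 held 157 and 191 CPM. These 5 PAC-derived lines overlapped with their neighbours in the order of levels, from 283 ± 102 CPM (SD, n = 3) in Adcarc1511.1 to 174 ± 23.7 CPM (SD, n = 2) in Adcarc0846. TCC0840 was lower, with 118 and 137 CPM, and TCC1506 lower again, with 71.1, 95.1 and 71.4 CPM. No library of the 3 TCC lines reached the lowest library of the PAC-derived lines. TCC1509 held 0.114, 0.0604 and 0.278 CPM, which is 8 counts over its 3 libraries and 1217-fold below the median of the other 7 lines. The other 7 lines ran from 79.2 CPM in TCC1506 to 283 CPM in Adcarc1511.1.

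In the tissues CLDN7 showed the same kind of distribution, with 7 samples close together and 2 apart. Ln4.3 held 170 CPM, B7 143 CPM, B8 137 CPM, B10 135 CPM, B9 106 CPM, Ln4.2 99.3 CPM and P6.1 81.7 CPM. The PAC tissue P2 held 3.1 CPM from 40 counts, and the metastasis Ln6.2 held 0.0718 CPM from 1 count, with an exact Poisson interval (95%) of 0.00182 to 0.4 CPM. Of the lymph node metastases of the PAC dog, Ln4.2 lay within and Ln4.3 above the range of the 5 primary TCC tissues, while the lymph node metastasis of the TCC dog lay below its own primary tumour P6.1 by 1138-fold (95% interval from counting 204 to 44970). A tissue library averages over all cells in the piece, so fewer epithelial cells and less RNA of the gene per epithelial cell cannot be told apart.

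TMPRSS2 was spread over a far wider range than CLDN7 and ordered the samples differently. TCC0840 held 125 and 225 CPM, Adcarc1508 103, 39.7 and 58.5 CPM, and Adcarc0846 40.0 and 32.7 CPM. The next lines were lower, with 9.3, 2.12 and 9.84 CPM in Adcarc1511.1, 2.04, 3.12 and 3.97 CPM in Metadcarc1511.3 and 3.18, 2.27 and 2.75 CPM in Metadcarc1511.2. TCC1506 held 2.57, 2.29 and 1.49 CPM. TCC1509 had 0 counts in all 3 libraries, against a floor of 0.0576 CPM for 3 counts over the line, and so lay at least 123-fold below the median of the other lines. In the order of means, TCC0840 did not overlap Adcarc1508, Adcarc0846 did not overlap Adcarc1511.1, and TCC1506 did not overlap TCC1509, whereas the libraries of the other neighbours overlapped. The 3 TCC lines therefore held the highest level, one of the lowest and none, and CLDN7 did not separate them in this way.

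The tissues with most TMPRSS2 were primary TCC. B9 held 1833 CPM, B10 825 CPM, B8 668 CPM and P6.1 457 CPM. The metastases Ln4.3 and Ln4.2 held 34.2 and 26 CPM, and the fifth primary TCC, B7, only 8.75 CPM. P2 held 0.543 CPM from 7 counts, and Ln6.2 held 0.0718 CPM from 1 count, with an interval of 0.00182 to 0.4 CPM. B7 contained as much CLDN7 as B8 and B10 but held 8.75 CPM of TMPRSS2 against their 668 and 825 CPM. Compared with B9, the tissue with most TMPRSS2, it held 209.5-fold less.

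TGM1 was low in all lines but one. The libraries of TCC1506 held 8.41, 7.79 and 24 CPM. The last of these, which belongs to the other series of sample numbers, stood above the first 2, and the mean of 13.4 ± 9.17 CPM (SD, n = 3) fell between them. All other lines had means between 0.44 CPM in Adcarc0846 and 1.25 CPM in TCC0840, from 17 to 55 counts over the libraries of a line, and each overlapped its neighbour in the order. TCC1509, with 1.08, 1.15 and 0.835 CPM, stood behind only TCC1506 and TCC0840 for TGM1, although it was last for the other 2 genes.

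In the tissues TGM1 was highest in the PAC metastases, with 68 CPM in Ln4.3 and 49.3 CPM in Ln4.2. The primary TCC tissues followed, with 22.6 CPM in B9, 19.3 CPM in B10, 11.8 CPM in B8, 3.39 CPM in P6.1 and 1.96 CPM in B7. P2 held 1.86 CPM and Ln6.2 0.934 CPM, from 24 and 13 counts. B7 and TCC1506, tumour and line of 1 dog, were thus at opposite ends of the order of primary TCC tissues and of the order of lines.

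**Figure D1:**
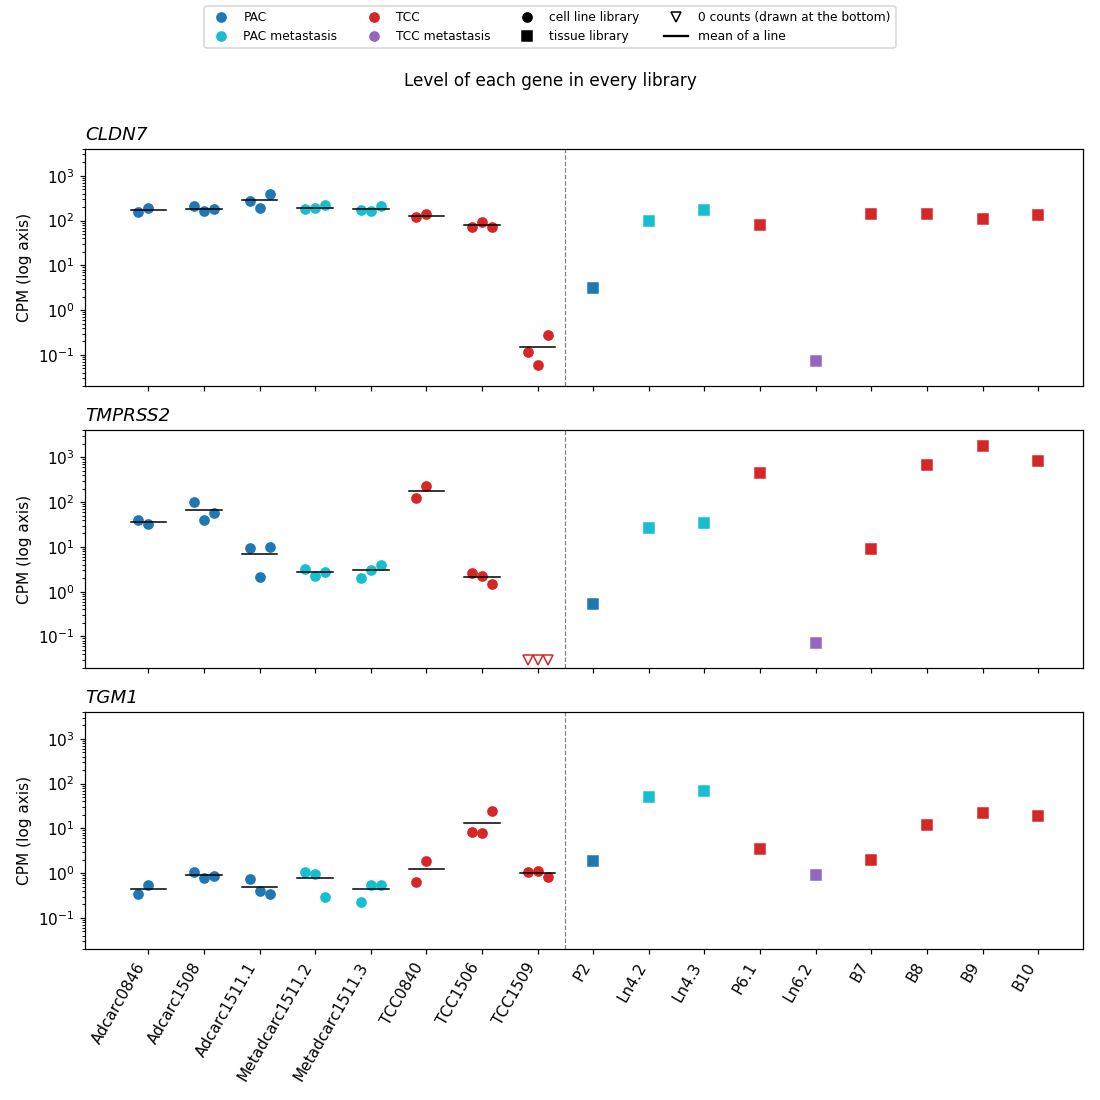
Level of each gene in CPM (log axis) in every library of the 8 lines (circles, left of the dashed line) and the 9 tissues (squares, right), coloured by class, with black bars for the mean of a line and open triangles for 0 counts. CLDN7 was near 0 in TCC1509 and Ln6.2, TMPRSS2 ran from 0 counts in TCC1509 to 1833 CPM in B9, and TGM1 was above 2 CPM in 1 line, TCC1506.

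TPM, which take gene length into account, allow the genes to be compared with each other. By this scale CLDN7 was the most abundant of the 3 in 7 of the 8 lines, for example with a TPM level of 691 in Adcarc1511.1 against 2.03 for TMPRSS2 and 0.302 for TGM1. In B9 the order was different, with 647 TPM for TMPRSS2, 317 TPM for CLDN7 and 16 TPM for TGM1. In TCC1509 TGM1 was the highest of the 3, with 0.685 TPM against 0.423 TPM for CLDN7 and 0 for TMPRSS2. The gene models of CLDN7 and TGM1 have a coding length that is a multiple of 3 and so seem to hold no untranslated regions, which limits this comparison with TMPRSS2.

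Each line was then set beside the tissue it was grown from. CLDN7 was higher in both metastasis lines than in their tissues, 1.97-fold in Metadcarc1511.2 against Ln4.2 and 1.08-fold in Metadcarc1511.3 against Ln4.3. It was lower in both TCC lines, 542-fold in TCC1509 against P6.1 and 1.81-fold in TCC1506 against B7. The difference of 1.08-fold was smaller than the spread between the libraries of Metadcarc1511.3, whose highest and lowest differed by 1.27-fold.

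TMPRSS2 was lower in these 4 lines than in their tissues. The metastasis lines lay 9.5-fold below Ln4.2 and 11.2-fold below Ln4.3. TCC1506 lay 4.13-fold below B7, and TCC1509 lay at least 7924-fold below P6.1. The PAC line Adcarc0846 went the other way for 2 of the genes, with 56.1-fold more CLDN7 and 67-fold more TMPRSS2 than its tissue P2.

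TGM1 was lower in 4 of the 5 lines, 63.3-fold in Metadcarc1511.2, 154-fold in Metadcarc1511.3, 3.32-fold in TCC1509 and 4.23-fold in Adcarc0846. In TCC1506 it was 6.84-fold higher than in B7, and each of its 3 libraries lay above B7. No pair showed all 3 genes lower in the line than in the tissue except TCC1509 with P6.1.

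**Figure D2:**
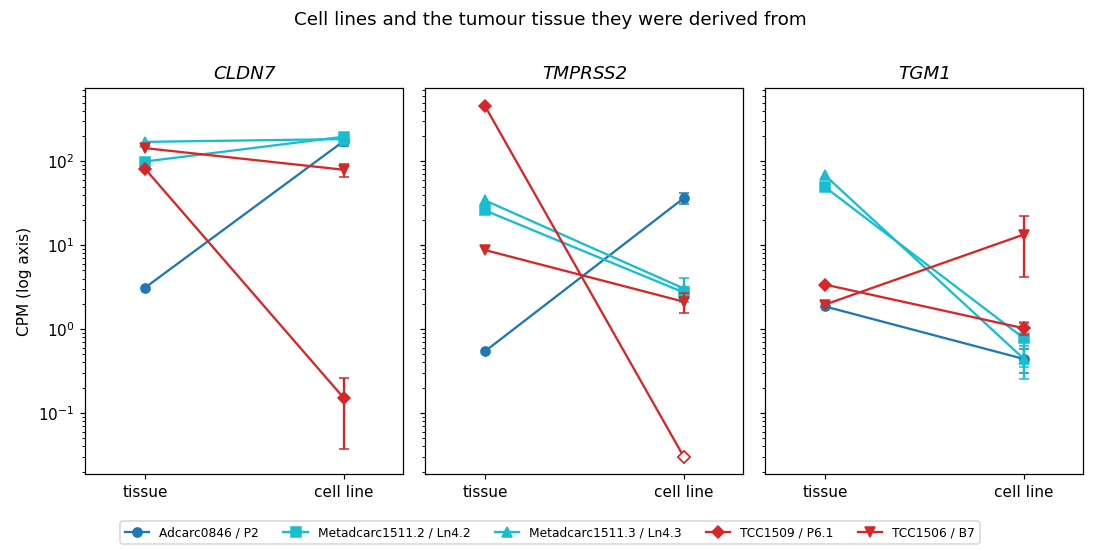
CPM (log axis) of each gene in a tissue and in the mean of the line derived from it, 1 line per pair, with bars for the SD of the line's libraries and an open symbol for 0 counts, coloured as PAC (blue), PAC metastasis (cyan) and TCC (red). CLDN7 was at 196 and 184 CPM in the metastasis lines and at 0.151 CPM in TCC1509, TMPRSS2 was above its tissue in Adcarc0846 alone, and TGM1 in TCC1506 alone.

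The 2 metastasis pairs, both of 1 dog, were also fitted across all genes (edgeR, pair as a term). The log2 fold change of the lines was 0.51 for CLDN7 (standard error 0.28), -3.42 for TMPRSS2 (0.25) and -6.64 for TGM1 (0.43). TMPRSS2 and TGM1 were among the genes called lower (adjusted p of at most 0.01 and at least a 2-fold change), as were 9.56% of the 15123 genes tested, with a further 1.69% called higher, and CLDN7 was not called. Nothing is read from these calls, since the contrast had been used in choosing the genes. For the 2 TCC pairs, edgeR called 0 of 13599 genes (0%), with 845 at an unadjusted p under 0.05 and 486 called by DESeq2. Among 12882 genes, 0.248% were called in either direction between the 3 TCC lines and the 5 primary TCC tissues, and none of the members was among them. There the log2 fold change of CLDN7 was -0.87 (standard error 1.2), that of TMPRSS2 -3.74 (2.3) and that of TGM1 -1.21 (1.1), each within 2 standard errors of 0. With 1 sample left out at a time the value for CLDN7 ran from -1.67 to -0.29, that for TMPRSS2 was -9.54 (2.8) without TCC0840, which leaves lines at 2.12 and 0 CPM, and that for TGM1 was -3.43 (1.1) without TCC1506. None of these was called either. Nothing is read from the members' values here, since the genes were chosen by the contrast between lines and tissues.

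Passage was a contrast that the choice of the genes had not used. In the 6 lines with 3 libraries, the earliest library was compared with the 2 later ones within each line. Apart from TCC1506, the earliest libraries carry sample numbers 1 to 5 and the later ones 7 to 16. In TCC1506 the last library belongs to the other series of sample numbers. Passage cannot be told apart from other differences that go with these numbers. The later libraries held more CLDN7 in 5 of 6 lines, with ratios of 0.823 to 1.48, the highest in TCC1509 from 2, 1 and 5 counts. The log2 fold change of 0.06 (standard error 0.16) did not pass the test (adjusted p = 0.986, edgeR, and 0.835, DESeq2). TMPRSS2 was lower in the later libraries in 4 of the 5 lines with counts, at 0.477 of the earliest level in Adcarc1508 and 1.73 of it in Metadcarc1511.3, with a log2 fold change of -0.45 (0.30) and an adjusted p of 0.308. TGM1 was lower in 4 lines and higher in 2, with ratios of 0.497 to 2.42, a log2 fold change of -0.01 (0.31) and an adjusted p of 0.983. None of the 3 genes was called, whereas 21.6% of the 13960 genes tested were called in either direction at an adjusted p of at most 0.05. A missed threshold does not show equal levels, and the standard errors leave room for changes in TMPRSS2 and TGM1 of over 1.5-fold.

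**Figure D3:**
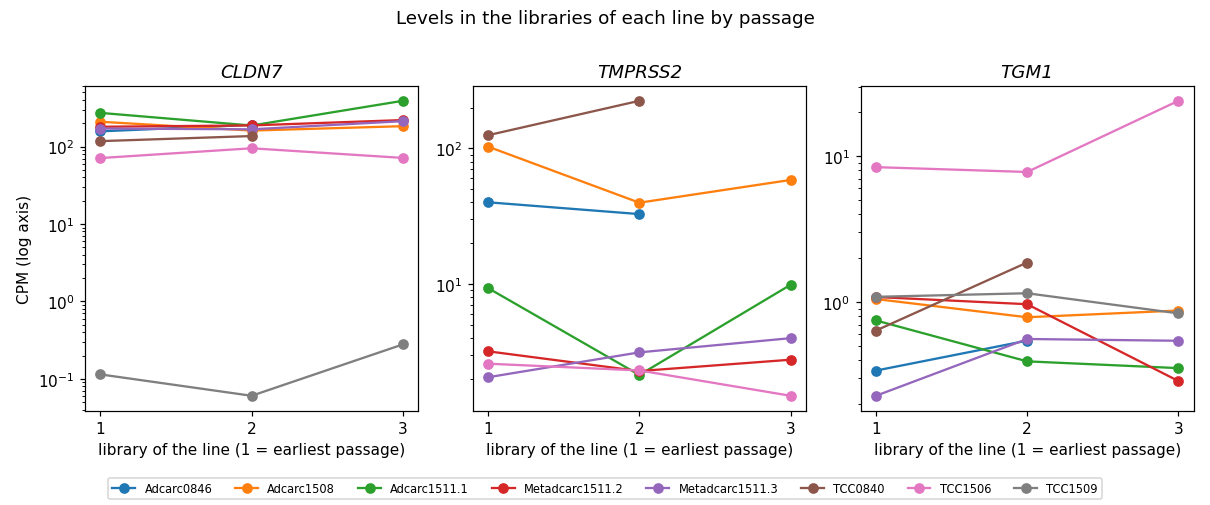
CPM (log axis, own range per panel) of each gene in the libraries of each line, ordered by passage with 1 as the earliest, points joined within a line. Lines with 0 counts in all libraries are left out, which concerns TMPRSS2 in TCC1509. CLDN7 stayed within 2.09-fold in each line apart from TCC1509, while TMPRSS2 in Adcarc1511.1 ranged from 2.12 to 9.84 CPM.

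The libraries of a line differed less for CLDN7 than for the other genes. The coefficient of variation of CLDN7 was 10.6 to 36% outside TCC1509, where it was 75.2% from 8 counts. It was 14.1 to 60.8% for TMPRSS2 in the 7 lines with counts, highest in Adcarc1511.1, and 14.8 to 69.5% for TGM1, highest in TCC0840 with 0.636 and 1.86 CPM. Differences of about 2-fold between lines in TMPRSS2 and TGM1 were therefore within the spread of single lines.

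TCC1509 was the lowest of the lines for CLDN7 and TMPRSS2, while TGM1 was at most at 1.25 CPM in every line but TCC1506. The correlation of log2(CPM + 0.25) over the 8 lines was 0.65 for CLDN7 and TMPRSS2 (Spearman's rho 0.33), -0.13 for CLDN7 and TGM1 (rho -0.55) and -0.19 for TMPRSS2 and TGM1 (rho -0.19). Without TCC1509 and TCC1506, the samples farthest from the median of CLDN7, the first of these was -0.63 (rho -0.6) and the second -0.60 (rho -0.09), and without TCC1509 alone the first was 0.03. Without TCC0840 and TCC1509, the farthest for TMPRSS2, the correlation of TMPRSS2 and TGM1 was -0.40. The relation of CLDN7 and TMPRSS2 in the lines therefore rested on TCC1509. Adcarc1511.1 and both metastasis lines share a dog, and no p is given.

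Over the 9 tissues the correlations were 0.78 for CLDN7 and TMPRSS2 (rho 0.42), 0.68 for CLDN7 and TGM1 (rho 0.58) and 0.57 for TMPRSS2 and TGM1 (rho 0.6). Ln6.2 was lowest and P2 second lowest of the 9 tissues for all 3 genes. Without these 2, which lie farthest from the median of CLDN7, the correlations were -0.33, 0.24 and 0.04 in the same order. Without Ln6.2 and B9, the farthest for TMPRSS2, that of TMPRSS2 and TGM1 was 0.33. Among the remaining 7 tissues CLDN7 varied from 81.7 to 170 CPM only, whereas TMPRSS2 varied from 8.75 to 1833 CPM and TGM1 from 1.96 to 68 CPM. Ln4.2 and Ln4.3, and P6.1 and Ln6.2, come from the same dogs.

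**Figure D4:**
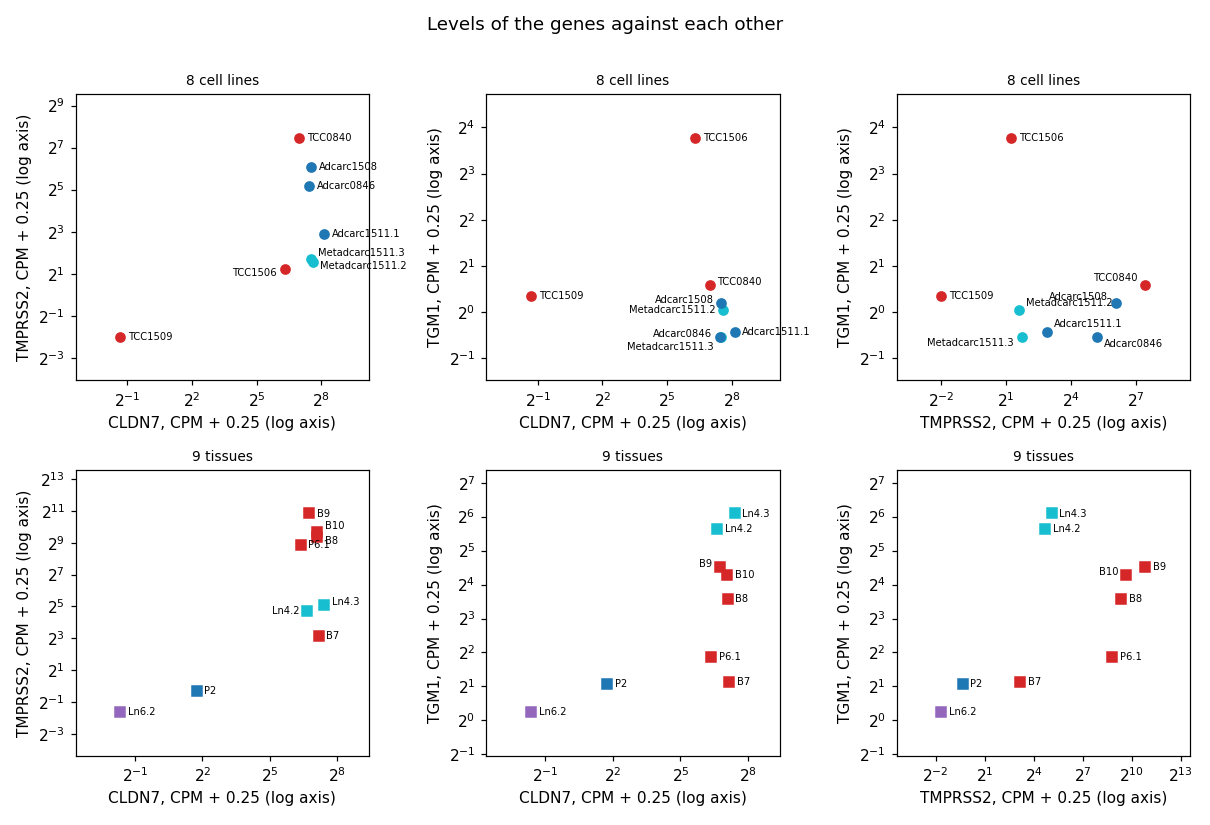
Levels of the genes against each other as CPM + 0.25 (log axes) in the 8 lines (circles, mean of libraries) and the 9 tissues (squares), coloured as PAC (blue), PAC metastasis (cyan), TCC (red) and TCC metastasis (purple). TCC1509 lies alone at low CLDN7, with TGM1 among the low levels of the lines other than TCC1506, TCC1506 lies alone at high TGM1, and Ln6.2 and P2 lie lowest on both axes in each tissue panel.

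Tissues with low levels of the 3 genes also held little EPCAM and much fibroblast RNA. EPCAM, the epithelial adhesion molecule, was at 13.4 CPM in Ln6.2 and 19.5 CPM in P2, against 214 to 1946 CPM in the other 7 tissues. The summed level of 16 fibroblast and mesenchymal genes, such as collagens, was 113200 CPM in P2 and 62340 CPM in Ln6.2, but also 68530 CPM in Ln4.2, which held 99.3 CPM of CLDN7, and it ranged from 1363 CPM in B7 to 10960 CPM in Ln4.3 among the other 6. None of the 16 genes was at 0 counts in any tissue. The 11 leukocyte genes summed to 191 to 4644 CPM and 7 endothelial genes to 76.3 to 2004 CPM in the tissues, each lowest in B7 and highest in P2. In the lines the fibroblast list summed to 493 to 2132 CPM, with up to 5 of its genes at 0 counts, the leukocyte list to 0.813 to 272 CPM, with 5 to 8 at 0 counts, and the endothelial list to 5.16 to 84.6 CPM. The part of tissue composition in the levels of the 3 genes was not tested.

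Relative to EPCAM in the same library, an expression chosen after the levels had been seen, the 2 low tissues differed from each other. The ratio of CLDN7 to EPCAM was 0.159 in P2, inside the 0.0578 to 0.706 of the 7 other tissues, and 0.00538 in Ln6.2, where it rests on 1 count of CLDN7. TCC1509, in which EPCAM was at 26.4 CPM, had a mean ratio of 0.00538, against 0.248 to 0.805 in the other 7 lines. Its 3 libraries gave 0.004, 0.00294 and 0.00919, from 2, 1 and 5 counts of CLDN7. The ratio of TMPRSS2 to EPCAM was 0.0279 in P2 and 0.029 in B7, the lowest of the other tissues, and 0.00538 in Ln6.2, where it again rests on 1 count. At the upper limit of its counting interval the ratio of either gene in Ln6.2 would be 0.03, above P2 and B7 for TMPRSS2 and still below all other tissues for CLDN7. The ratio of TGM1 to EPCAM was 0.0956 in P2 and 0.0699 in Ln6.2, both above the 0.00604 to 0.0129 of the 5 primary TCC tissues and below the 0.23 and 0.282 of Ln4.2 and Ln4.3. By this measure P2 lay inside or next to the range of the other tissues for all 3 genes, and Ln6.2 lay below it for CLDN7 and inside it for TGM1, while for TMPRSS2 its single count does not place it. EPCAM itself was far below the other samples in P2, Ln6.2 and TCC1509, and a low EPCAM raises the ratio. In TCC1509 the ratio of TGM1 to EPCAM was 0.0405, against 0.000588 to 0.00225 in the other lines apart from TCC1506. Whether EPCAM measures epithelial content in these samples was not tested.

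Other epithelial genes were then examined in the same way, to place the low levels of the members. A gene was counted as low in a sample if it was at least 8-fold below the median of the other lines, or other tissues, and if that median was at least 1 CPM. In TCC1509, CLDN7 and TMPRSS2 were low, as were 5.91% of 11679 genes, and TGM1 could not be counted because the median of the other lines was 0.777 CPM. In Ln6.2 all 3 were low, as were 3.09% of 13398 genes, and in P2 all 3 were low, as were 3.34% of 13362 genes. TMPRSS2 alone was low in B7, where 11.7% of the genes were, and in Ln4.2, where 0.622% were. For TGM1 the 8-fold limit fell between P2 and B7, which lay 8.35-fold and 7.93-fold below the median of the other tissues. Their counting intervals of 1.2 to 2.8 and 1.3 to 2.8 CPM overlap, so TGM1 does not set P2 apart from B7. Nothing is read from the members' own counts, since their levels had been used to choose them.

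Of 47 further epithelial genes in 6 lists, 6 of the 40 with a sufficient median were low in TCC1509, 14 of 47 in Ln6.2 and 20 of 47 in P2, against the 5.91, 3.09 and 3.34% of all genes. TCC0840 and Adcarc0846 each had 3 low genes of 40, against 3.25 and 3.15% of all genes. Most of the 47 carry an identifier because the study had listed them for a relation to drug resistance in these same lines, so the lists are not independent of these samples. The low genes of TCC1509 were EPCAM, the laminin chain LAMB3, the membrane traffic genes MAL2, PLLP and RAB27B, and FAM83A. Of these, FAM83A was also low in TCC0840, Adcarc0846, TCC1506, B8, B9 and B10, and PLLP in TCC1506. All of them but PLLP, 5 of 6 (83.3%), were among the 14 of Ln6.2, of which they made up 35.7%, whereas of all low genes 221 were shared, 32% of the 690 in TCC1509 and 53.4% of the 414 in Ln6.2. Of these 5, the 4 genes EPCAM, LAMB3, MAL2 and RAB27B were also low in P2, a tissue of another dog. Ln6.2 and P2 shared 11 genes, 78.6% of those of Ln6.2 and 55% of those of P2. The overlap of all low genes of these tissues was not counted, so nothing is read from this.

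Of the 11 other cell junction genes with an identifier, 9 could be counted in TCC1509, and 7 of these were at their lowest of the 8 lines there. The share of all genes at their lowest in TCC1509 was not counted, so nothing is read from this count. EPCAM alone was low by the 8-fold limit, and OCLN (occludin) at 19.1 CPM and the desmosome plaque gene PKP3 at 33.9 CPM, 7.28-fold and 6.23-fold below the median of the other lines, were just short of it. PERP, a desmosome component, was at 141 CPM in TCC1509 against 355 to 2209 CPM in the other lines, JUP (plakoglobin) at 325 CPM against 387 to 1751 CPM, and F11R, a tight junction adhesion molecule, at 35 CPM against 81.4 to 155 CPM. PARD3B and CDH3 were not lowest in TCC1509, at 46.4 and 117 CPM. NECTIN3, which could not be counted there, was at 21.9 CPM, the highest of the 8 lines. OCLN had the lowest level of the 9 in TCC1509, where CLDN7 was at 0.151 CPM. In Ln6.2 and P2, PERP was at 4.24 and 9.38 CPM, JUP at 213 and 105 CPM and F11R at 61.3 and 55.5 CPM. MPDZ was at 261 and 133 CPM in Ln6.2 and P2, its highest levels among the 9 tissues. In Ln6.2, 4 of the 11 were low (OCLN, EPCAM, PKP3 and PERP), and in P2 5 (the same 4 and CDH3).

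The genes listed with TMPRSS2, a target receptor of proteases and 2 protease inhibitors, differed among themselves. F2RL1, the protease-activated receptor, was at 51.1 CPM in TCC1509, the lowest of the 8 lines and 3.13-fold below the median of the others, and at 238 CPM in TCC0840, the highest. In Ln6.2 it was at 119 CPM, the highest of the 9 tissues, and in P2 at 3.33 CPM, 16.6-fold below the median of the others. SERPINB6 was at 533 CPM in TCC1509, the highest of the 8 lines. SERPINA1 was at 0 counts in 7 lines and at 2.49 CPM in TCC1506, and in the tissues it ranged from 5.57 CPM in B7 to 116 CPM in P2.

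Of the squamous genes listed with TGM1, the leading 4 did not share its pattern in the lines. KRT80, a keratin, was at 166 to 1445 CPM in the 8 lines, with the highest level in Metadcarc1511.3, where TGM1 was at 0.442 CPM. FAM83H ranged from 231 to 583 CPM and the kinase RIPK4 from 32.4 to 117 CPM in the lines, both lowest in TCC1509. IL20RB, a receptor chain for cytokines of the skin, was highest in TCC1506 with 49.5 CPM, as TGM1 was, but also reached 25.5 and 19.2 CPM in the metastasis lines.

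The epithelial transcription factors differed from each other in their pattern over the lines. TP63, the master regulator of basal epithelium, was at 316 CPM in TCC1506 and at most 0.117 CPM in the other 7 lines, so that the line with most TGM1 was also the line with TP63. In the tissues TP63 was at 170 CPM in B7, which held little TGM1, and at 0.428 and 0.686 CPM in Ln4.2 and Ln4.3, which held most. OVOL2, a repressor of mesenchymal genes, was at 3.35 CPM in TCC1509 and at 17.7 to 33.1 CPM in the other lines, and at 0 counts in Ln6.2. IRX2 was above 1 CPM in 3 lines, Adcarc0846 with 32.9 CPM, TCC1506 with 6.72 CPM and TCC0840 with 5.06 CPM. TFAP2B differed little between the lines, from 3.43 to 8.73 CPM, with 3.5 CPM in TCC1509.

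Among the basement membrane genes, the laminin chain LAMB3 was at 21.7 CPM in TCC1509 against 418 to 1493 CPM in the other lines, and LAMA3 at 69.2 CPM against 332 to 1057 CPM. The integrin chains ITGA3 and ITGA6 were not low in TCC1509, at 1589 and 634 CPM, the second highest and the highest of the 8 lines. Of the 15 apical and secretory genes, 14 could be counted in TCC1509, and 8 of these were at their lowest of the 8 lines there. Again the share of all genes was not counted, and nothing is read from this count. MAL2, PLLP and RAB27B lay 1445-fold, 182-fold and 21.2-fold below the median of the other lines. Of the 4 genes with the highest level in the primary TCC tissues, SDC1 was at 271 CPM in TCC1509, within the range of the other lines, SERINC2 at 55.1 CPM and MALL at 49.1 CPM, both the lowest of the lines, and SYTL2 at 27.9 CPM, 7.55-fold below the median of the others. SERINC2 was at 5.17 CPM and SYTL2 at 7.54 CPM in Ln6.2.

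**Figure D5:**
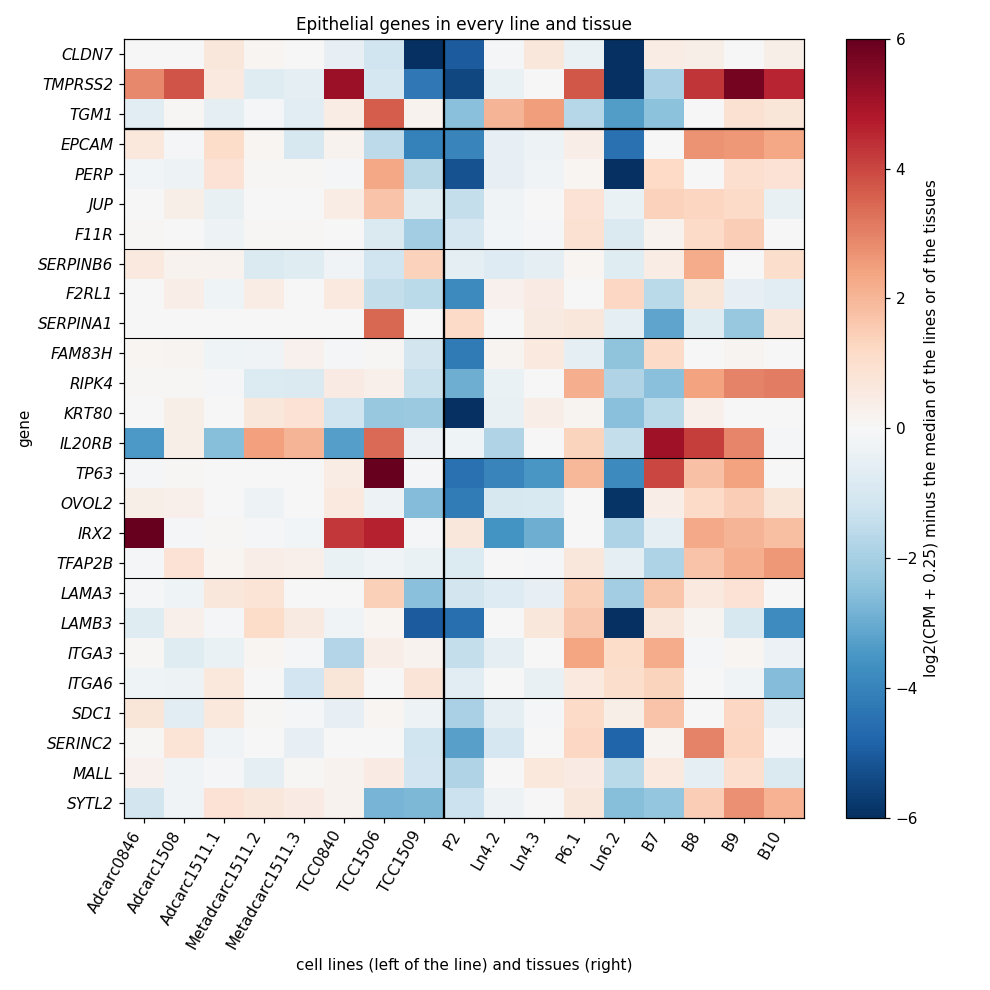
Difference of log2(CPM + 0.25) from the median of the 8 lines (left of the thick line) or of the 9 tissues (right) for the 3 genes (top) and the 4 leading genes of each list, blue for below and red for above, with the colours ending at 6. The blue of TCC1509 is darkest in CLDN7 and LAMB3, and of the 26 rows 24 are below the median in P2, 22 in Ln6.2, 18 in Ln4.2 and 11 in Ln4.3, with 13, 13, 2 and 2 at least 2 units below it. In TCC1509, 21 rows are below the median and 9 at least 2 units below it, against 9 to 13 and 0 to 2 in the other lines. The rows include the 3 genes chosen by their levels, and shares over all genes were not counted.

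In the metastasis pairs, 5 of the 44 listed genes tested were called higher in the lines (OCLN, KRT80, FAM83A, LAD1 and SYTL2) and 4 lower (NECTIN3, MPDZ, SERPINA1 and DLX3), beside the 1.69% and 9.56% of all genes, and the listed genes had a median log2 fold change of 0.53, where all genes had -0.05. By DESeq2, 16 of the listed genes were called higher and 8 lower, beside 1487 and 3354 of all 15123 genes. NECTIN3 was not among those 8. With passage, 2 of 46 were called higher in the later libraries (ITGA6 and SDC1) and 8 lower (PARD3B, IL20RB, LAMB3, SYTL1, SYTL2, STX3, TPD52 and SYNE4), 5 of them apical and secretory genes, beside 9.82% of all genes called higher and 11.8% lower. The listed genes had a median log2 fold change of -0.14, where all genes had -0.03. CLDN7, TMPRSS2 and TGM1 were not counted among the listed genes, and none of them was called with passage.

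Finally, the genes with the most similar pattern over all 17 lines and tissues were found for each member among 1058 genes with a symbol and at least 5 CPM in a sample. Closest to CLDN7 was MAL2, which takes part in apical transport (r = 0.96), then WWC1 (0.96), CDC42BPG (0.90), PLLP (0.87) and OVOL2 (0.86). All 5 were lowest in TCC1509 among the lines and lowest in Ln6.2 among the tissues, as CLDN7 was. They were picked for their correlation with CLDN7, so nothing is read from this. MAL2 was at 0.0577 CPM in TCC1509 and 0.0718 CPM in Ln6.2, close to the 0.151 and 0.0718 CPM of CLDN7. Rank correlations were lower, 0.45 to 0.82, so the likeness was closer in the size of these 2 lows than in the order of the other samples.

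Closest to TMPRSS2 were STX3 (r = 0.89), a syntaxin of the apical membrane, RHOV (0.89), SPTSSB (0.89), VAMP8 (0.88), a SNARE protein of secretory vesicles, and KAT8 (0.87), with rank correlations of 0.84 to 0.89. Levels of STX3 ran only from 4.29 to 22.6 CPM over all samples. Closest to TGM1 were TRPM2 (r = 0.83), LOC487739 (0.77), PTPRN2 (0.74), ADGRE3 (0.74) and ANKRD35 (0.72). PTPRN2 and ADGRE3 were at most at 0.207 and 0.0414 CPM in the lines, so no correlation within the lines is given for them, and for LOC487739 the correlation was 0.16 within the 8 lines and 0.71 within the 9 tissues. No gene was among the 5 closest of more than 1 member.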

How the data were processed

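RNA was sequenced from 22 libraries of 8 cell lines and 9 tissues on 4 lanes each. After read trimming (Trimmomatic 0.36) and alignment to the genome build CanFam3.1 (STAR 2.5.3), the authors deposited RSEM 1.3.0 expected counts and TPM per lane for genes of the Ensembl annotation, without further normalization. Lanes were summed per library here and rounded for the tests (TPM were averaged). CPM used TMM factors. Tests used edgeR 4.0.16 (quasi-likelihood, Benjamini-Hochberg adjustment), with DESeq2 1.42.0 as the alternative, on genes with at least 10 counts in both lines or both tissues (passage, in at least 3 libraries), and were tested on simulated data. Standard errors are the size of a log2 fold change over the root of its F.

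Members and lists were chosen with earlier results of these data known. The files hold identifiers only, and symbols came from the text and supplement of the study. Named were the 3 members, the 5 genes most correlated with each and, of each epithelial list, the 4 genes with the highest median CPM in the 5 primary TCC tissues, apart from genes counted as low or called. Alternatives were the tool, scaling, filter, pseudocount, thresholds, pairing and left-out samples. Line Adcarc1258 and tissues P1 and P3 were not analysed here, and 1 listed gene is not reported here.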

Additional observations from a re-analysis of the deposited data

Results flagged for a closer look

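In TCC1509 the log2 level of CLDN7 stood apart from the other 7 lines by 0.806 of the range over the 8 lines. In TCC1506 the log2 level of TGM1 stood apart from the others by 0.74 of that range, with replicate 3 at 24 CPM and the other 2 libraries near 8 CPM. Among the 5 primary TCC tissues the log2 level of TMPRSS2 in B7 stood apart by 0.739 of the range. Each is listed because the gap to the nearest other sample was wide for the number of samples. The genes were chosen by these levels, so the gaps describe the samples and no test is read from them.

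CLDN7 was higher in both metastasis lines than in their tissues and lower in both TCC lines than in theirs, and the mean log2 ratios of both kinds of pairs differed by 5.51. This difference was not tested, both metastasis pairs come from 1 dog, and the log2 ratio was -9.08 for TCC1509 and -0.86 for TCC1506.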

How the results depend on the processing

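DESeq2 called 4841 genes in the metastasis pairs, where edgeR called 1701, 486 against 0 in the TCC pairs and 699 against 32 between TCC lines and primary TCC tissues. The last count was 222 without B7, 7 without P6.1 and 0 without any one of TCC0840, TCC1506, TCC1509, B8, B9 and B10 (with 1606 to 1891 genes at an unadjusted p under 0.05 by edgeR). Passage calls, 3022 in all, ranged from 549 without replicate 2 to 3415 without Adcarc1511.1, with 1611 without Adcarc1508, 1431 without Metadcarc1511.2 and 1921 without Metadcarc1511.3. Tissues have 1 library each, so replicate numbers pair no line with a tissue, and libraries of different lines share only a number. Without the pair term, edgeR called 2044 genes in the metastasis pairs and 0 in the TCC pairs (876 at an unadjusted p under 0.05), and no member's call changed. Leaving out replicates 1, 2 or 3 gave 1878 to 2184 calls in the metastasis pairs and 0 in the TCC pairs. No member gained or lost a call under any alternative, and for lines against tissues nothing is read from this, since that contrast was used in choosing them. The log2 fold change with passage turned to -0.12 for CLDN7 without replicate 3, and for TGM1 to 0.0028 without a count filter, 0.07 without Adcarc1508, 0.16 without Adcarc1511.1, 0.15 without Metadcarc1511.2 and 0.011 without TCC1509, and over all left-out libraries and lines it ran from -0.12 to 0.20 for CLDN7, -0.79 to -0.19 for TMPRSS2 and -0.30 to 0.16 for TGM1. The correlations moved by more than their jackknife error without TCC1509 (0.025 for CLDN7 and TMPRSS2, -0.88 for CLDN7 and TGM1), without P2 and Ln6.2 (-0.33, 0.24 and 0.044 in tissues) and, in tissues, as ratios to EPCAM (0.255 for CLDN7 and TMPRSS2, 0.202 for CLDN7 and TGM1, -0.42 for TMPRSS2 and TGM1). Leaving out P2 and Ln6.2 together and the ratio to EPCAM were chosen after the data were seen. Leaving out 1 sample at a time gave 0.03 to 0.74, -0.88 to -0.071 and -0.27 to 0.12 in lines, and 0.65 to 0.86, 0.53 to 0.82 and 0.38 to 0.68 in tissues, in the same order. At 4-fold, 14 listed genes were low in TCC1509, and 22 listed and 716 of all genes in Ln6.2. With a median of at least 5 CPM, 429 of all genes were low in TCC1509. Without TMM factors or with summed libraries, 95 of 102 levels stayed within the spread of libraries or counting error. Depth limits CLDN7 in TCC1509 and both CLDN7 and TMPRSS2 in Ln6.2, and TGM1 in 7 lines rests on 55 counts or fewer. Where a cause of these changes is not given by their construction, the cause was not tested.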

Other observations

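TCC1506, the line with most TGM1, also held the highest level of the 8 lines in several genes of the junction and squamous lists that were singled out after their values had been seen. PERP was at 2209 CPM, JUP at 1751 CPM and PKP3, a plakophilin of desmosomes, at 493 CPM, against at most 813, 712 and 273 CPM in the other lines. DLX3, a transcription factor of stratified epithelium, was at 19 CPM in TCC1506 and at most 5.87 CPM in the other lines. MUC13, a mucin, was at 262 CPM in TCC1506 and at most 0.649 CPM in the other lines, and at 533 CPM in its tissue B7. CDH3, P-cadherin, was at 407 CPM in TCC1506 and 728 CPM in B7, but the metastasis lines held as much, with 424 and 371 CPM.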
